A study of Mus musculus with 6 samples.

Results

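Messenger RNAs of the mitochondrial genome were followed in mouse hippocampus. The samples came from males of background C57BL/6J, aged postnatal day 56: 3 were wild type and 3 carried the Trpc4 knock out, and each was hybridised to its own Affymetrix array. The gene Trpc4 codes for a cation channel opened downstream of receptors. The labels name no Cre, transgene or further treatment, nor the deleted stretch of the gene. The list asked for 10 genes, and a gene was taken where the platform annotation of a probe set named it and no other gene. The probe set was chosen by its mean signal over the 6 arrays, the highest standing for the gene. This rule found 9 of the 10 genes, each with 1 probe set, of 22180 genes tested in all. They were ND1, ND2, ND3, ND4, ND4L, ND5, ND6, COX1 and CYTB. ATP6 was not found, because its probe set also named ATP8 and the pseudogene Gm10925. The 9 genes were chosen with earlier results of these data known, ND6 in particular, so the values of ND6 are a description and the comparison offers no independent test of it. All differences are knockout minus wild type on the log2 scale of the deposited signals, where a difference of 1 is a doubling of signal.

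Mitochondrial DNA is a small circle that encodes core subunits of the respiratory chain, with the ribosomal and transfer RNAs needed to make them, and a neuron-rich tissue such as the hippocampus depends heavily on that chain. Both strands are transcribed into long precursors by the polymerase POLRMT with TFAM and TFB2M, and transfer RNAs are then cut out to release the messenger RNAs. All of the protein-coding genes but ND6 have their messenger RNA from one strand, called here the heavy-strand genes, while ND6 alone is made from the precursor of the opposite, light strand. ND1 to ND6 and ND4L are subunits of complex I, CYTB belongs to complex III, COX1 to complex IV and ATP6 to complex V. In the reference gene table ND6 lies between ND5 and CYTB, which are read in the opposite direction. The strand and positions of the probes were not known here. Whether the ND6 probe set reads only light-strand RNA was therefore not checked. Transcription of the light strand also yields long noncoding RNA, which in human cells is removed by the degradosome of SUPV3L1 and PNPT1, with GRSF1 as a helper.

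The 3 knockout samples all had less ND6 signal than the lowest of the wild-type samples, while none of the 8 heavy-strand genes separated the genotypes. ND6 stood at 10.09, 10.54 and 10.82 in wild-type replicates 1 to 3, and at 9.96, 9.63 and 9.79 in knockout replicates 1 to 3. The groups did not overlap, but the gap between wild-type replicate 1 and knockout replicate 1 was 0.12, small beside the range of 0.73 within wild type and 0.33 within knockout. Wild type averaged 10.48 ± 0.37 and knockout 9.80 ± 0.17 (SD, n = 3 each). ND6 thus differed by -0.69, with 0.18 as its standard error and a 95% confidence interval of -1.11 to -0.26 from the limma fit over all genes. On a linear scale knockout reached 62.2% of wild type, with an interval of 46.3% to 83.4%.

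ND6 did not pass the threshold over all genes tested, with an adjusted p of 0.849 (limma, Benjamini-Hochberg). No gene passed it, so the share of genes called was 0% of 22180, while 1276 genes had an unadjusted p under 0.05. Every knockout value lay below every wild-type value for 4.45% of all genes, which is the background for the same pattern in ND6. With 3 samples a group, 0.1 is the smallest p that an exact two-sided permutation test can reach. The labels number the replicates without saying that each is a separate animal, so the spread between samples may be technical in part. In tissue RNA, fewer cells of a type and less RNA per cell cannot be told apart.

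**Figure D1:**
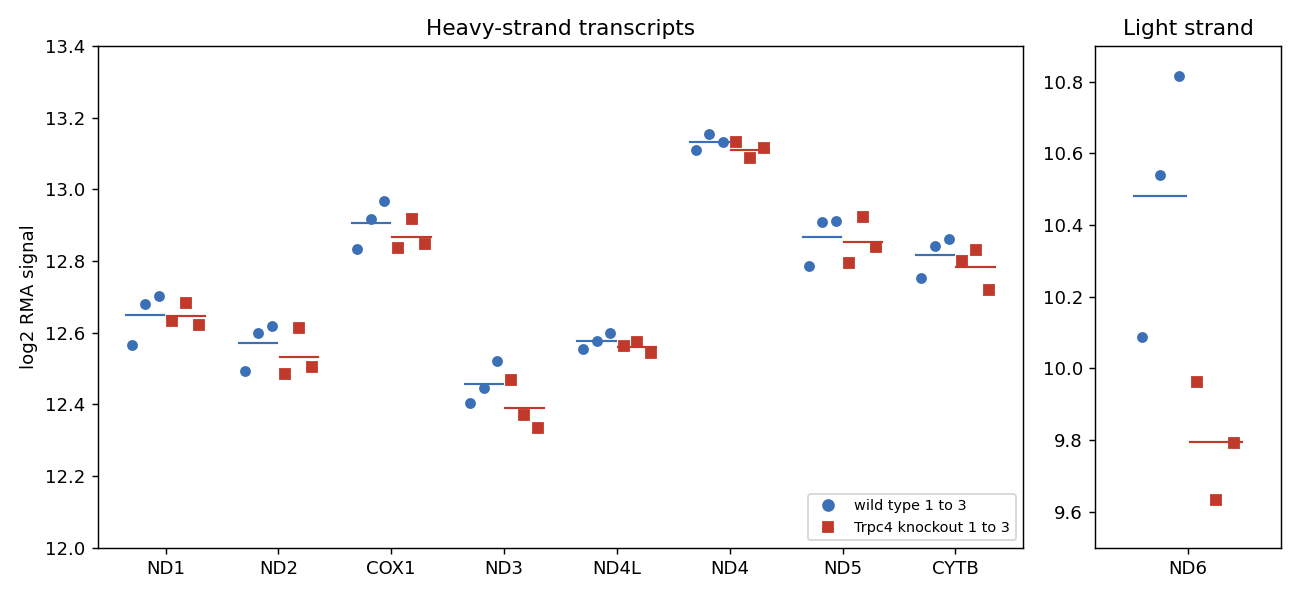
The deposited log2 signal of 8 heavy-strand genes (left) and ND6 (right) is plotted by gene, with a point for each of 3 wild-type (blue circles) and 3 knockout samples (red squares) and a line at each group mean. Both vertical axes span the same number of log2 units; ND6 runs from 9.63 to 10.82 with no overlap of the groups, whereas the groups overlap for every heavy-strand gene shown.

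The complex I genes of the heavy strand differed little between genotypes. ND1, ND2, ND3, ND4, ND4L and ND5 all encode membrane subunits of the proton-pumping arm. ND1 had log2 signals of 12.57, 12.68 and 12.70 in wild-type replicates 1 to 3 and 12.63, 12.68 and 12.62 in the knockout replicates, and it differed by -0.0033. ND2 had 12.49, 12.60 and 12.62 in wild type and 12.48, 12.61 and 12.50 in knockout. For both genes wild-type replicate 1 was low and the other wild-type samples were high, so the groups overlapped widely.

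ND5, the neighbour of ND6 on the opposite strand, had log2 signals of 12.79, 12.91 and 12.91 in wild type and 12.80, 12.92 and 12.84 in knockout. Its difference was -0.02 with a standard error of 0.08 and a 95% interval of -0.20 to 0.17. The values of ND5 thus interleaved between genotypes where those of ND6 separated. ND3 had the lowest knockout mean relative to wild type of the heavy-strand members, with 12.40, 12.45 and 12.52 in wild type and 12.47, 12.37 and 12.33 in knockout. Its difference was -0.07 with an interval of -0.25 to 0.11, and knockout replicate 1 was above 2 of the 3 wild-type samples.

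ND4 and ND4L, which are read from one shared messenger RNA, varied least across the arrays. ND4 lay between 13.09 and 13.15 in all samples and differed by -0.02. ND4L lay between 12.54 and 12.60 and differed by -0.02 as well. ND4 had the brightest probe set of all 41345 on every array, and repeating the quantile normalization set its difference to 0.

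CYTB, the cytochrome b of complex III, lies on the other side of ND6 in the gene order. It had log2 signals of 12.75, 12.84 and 12.86 in wild type and 12.80, 12.83 and 12.72 in knockout, a difference of -0.03 with an interval of -0.21 to 0.14. Like ND5, CYTB overlapped between genotypes. COX1, the catalytic subunit of cytochrome c oxidase, had 12.83, 12.92 and 12.97 in wild type and 12.83, 12.92 and 12.85 in knockout. Its difference was -0.04 with an interval of -0.21 to 0.14, and the samples of both genotypes interleaved.

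Taken as a list, the 8 heavy-strand genes had differences of -0.07 to -0.0033, with a median of -0.03, where the median over all 22180 genes was 0.01. All 8 were below 0, as were 45.1% of all genes. These 8 share precursor RNA and samples and are not 8 separate observations, and none of them passed the threshold (adjusted p 0.943 to 0.999, limma). Their standard errors were 0.07 to 0.08, and the widest bounds of their 95% intervals ran from -0.25 to 0.17. The probe sets of these 8 genes ranked 1 to 37 of 41345 on the arrays, whereas that of ND6 ranked 248 to 805. Normalization equalises the brightest values across arrays, so it can remove a change that the heavy-strand genes share. For none of the 8 were the groups separate, either with knockout below (background 4.45%) or with knockout above (background 6.41%).

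The remaining protein-coding genes of the mitochondrial genome are not members but had overlapping groups as well. COX3, a subunit of complex IV with a probe set of its own, averaged 12.37 ± 0.04 in wild type and 12.34 ± 0.04 in knockout, with n = 3 each and SD as the error, and differed by -0.03. The probe set naming ATP6, ATP8 and Gm10925 had values of 12.54, 12.69 and 12.66 in wild type and 12.54, 12.72 and 12.60 in knockout, a difference of -0.01. Gm10925 is a pseudogene on chromosome 1 for which the reference gene table lists an ATP6 name as a synonym. Copies of mitochondrial DNA lie in the nuclear genome, probe sequences were not used here, and how much such copies add to any of these signals was not tested. A probe set naming COX2 and the perforin gene Prf1 differed by -0.05, from 12.33 to 12.28.

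**Figure D2:**
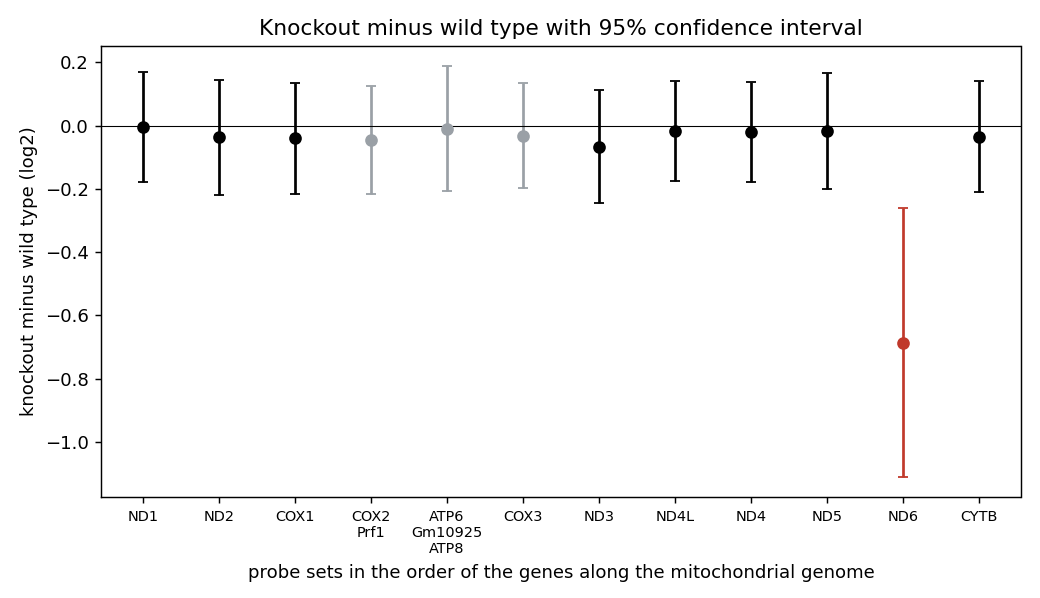
The difference of knockout minus wild type (log2, vertical axis) is shown for the 12 probe sets that name a protein-coding mitochondrial gene, in gene order, with 95% confidence intervals from limma; black points are heavy-strand members, grey points are probe sets outside the membership rule and the red point is ND6. All points but ND6, at -0.69, lie between -0.07 and 0, and their intervals include 0.

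ND6 was also set against the heavy-strand genes within each array. To avoid setting the signal of one probe set against another, each gene was expressed as the deviation from its own mean over the 6 arrays, and the mean over the 8 heavy-strand genes was subtracted from ND6. The remainder was -0.0061, 0.37 and 0.62 in wild-type replicates 1 to 3 and -0.16, -0.52 and -0.31 in knockout replicates 1 to 3. Wild-type replicate 1 was thus the sample of its group closest to the knockout samples. Wild type averaged 0.33 ± 0.32 and knockout -0.33 ± 0.18 (SD, n = 3 each), so that they differed by -0.66. This contrast is the one for which the genes were brought together, so it is given with no test. Its heavy-strand side carries the limit of normalization at the brightest ranks given above.

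The heavy-strand genes moved across arrays, in part together, by small amounts that did not follow genotype. All 8 lay below their own mean in wild-type replicate 1 and in knockout replicate 3, and none did in wild-type replicates 2 and 3. In knockout replicate 1 there were 6 below their mean and in knockout replicate 2 there were 2. Their mean deviation was -0.05, 0.03 and 0.06 in wild-type replicates 1 to 3 and -0.02, 0.02 and -0.04 in the knockout replicates.

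Across the 6 arrays, Pearson's r among the 28 pairs of heavy-strand genes ran from 0.06 to 0.97 with a median of 0.76. The highest value was that of ND2 with ND5, and the lowest that of ND4 with ND5. ND6 correlated with the 8 heavy-strand genes at 0.32 to 0.82, with ND5 lowest and ND3 highest. These are descriptions over 6 arrays that share 1 normalization. In wild type ND6 and the heavy-strand mean had the same order of samples, lowest in replicate 1 and highest in replicate 3. In knockout the orders differed, since replicate 2 was the lowest of its group for ND6 and the highest for the heavy-strand mean.

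The ND6 difference, which was known when ND6 was chosen, and its spread were set beside those of other genes of strong signal. Of the 832 genes with a mean signal of at least 9, a limit set after the values were seen, 0 others differed by as much as ND6 in either direction. The next was close: Tspan2, a tetraspanin gene of oligodendrocytes, differed by -0.62 with a standard error of 0.15, and its groups did not overlap either, at 9.33 to 9.66 in wild type and 8.66 to 9.17 in knockout. Over all genes, 24 others differed by at least as much as ND6 in either direction. Of these, 18 had an equal or larger fall in signal, among them Trpc4 itself. Trpc4 went from 8.06, 8.23 and 8.06 in wild type to 7.39, 7.55 and 7.31 in knockout. Its groups did not overlap, with knockout below as for 4.45% of all genes, and its adjusted p was 0.738 (limma). This is the check of the labels, and it is a weak one. The knockout signal stayed well above the overall median of 4.74, and a probe set outside the deleted part would not check the labels.

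The spread of ND6 among wild-type samples (SD 0.37) was matched or exceeded by 2 others of these 832 genes, Cdr1 and Gabra2, where the median within-group SD was 0.06. Cdr1 had signals of 10.13, 10.56 and 11.06 in wild-type replicates 1 to 3 and 10.14, 10.06 and 10.22 in knockout replicates 1 to 3. Its wild-type samples had the same order as those of ND6, with replicate 1 low and replicate 3 high, but its groups overlapped. Gabra2, a GABA-A receptor subunit gene, had its low wild-type value in replicate 2 instead, at 8.93 against 9.65 and 9.75. Within knockout, 28 of the 832 genes had an SD at least that of ND6.

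**Figure D3:**
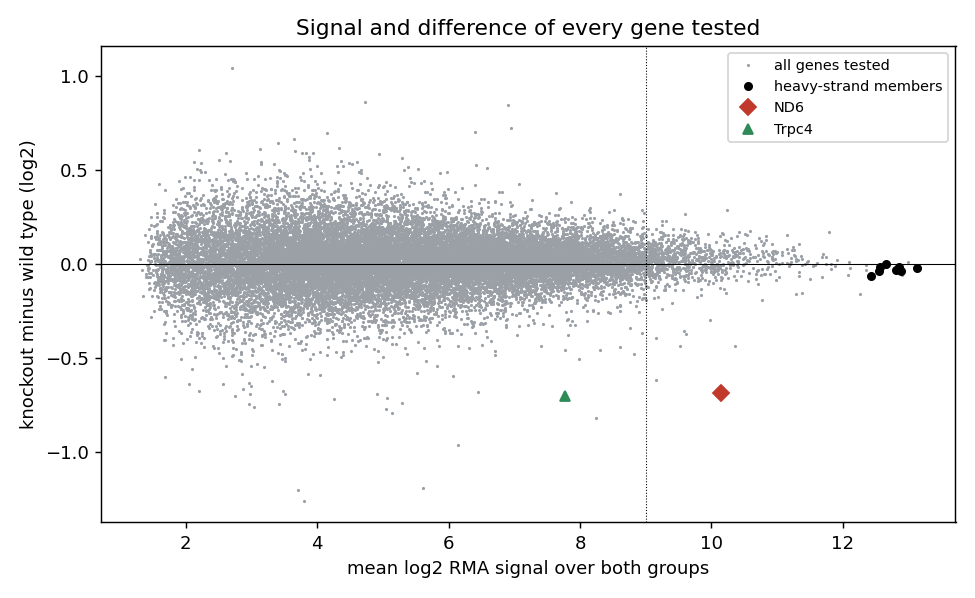
Each gene tested is a grey point, with the mean log2 signal over both groups on the horizontal axis and knockout minus wild type (log2) on the vertical axis; heavy-strand genes are black circles, ND6 a red diamond and Trpc4 a green triangle, and the dotted line marks a signal of 9. This line was set after the values were seen, and ND6 was chosen with its difference known. To the right of the line ND6, at -0.69, lies farther from 0 than any other gene. The heavy-strand genes lie near 0 at the bright end.

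The genes whose signal followed ND6 most closely over the 6 samples were, by Pearson's r among 11883 genes above the median signal, Acta2 (0.989), Gnpda1 (0.984), Dpy19l1 (0.982), Itfg1 (0.981) and Tmx3 (0.979). Acta2, the smooth muscle actin of arterial walls, had signals of 6.56, 6.68 and 6.80 in wild type and 6.54, 6.36 and 6.43 in knockout. Its groups did not overlap and its difference was -0.24, which follows in part from its choice by likeness to ND6. The other 4 differed by -0.23 to -0.13, less than ND6, and with 6 samples 22 of the 11883 genes reached an r of 0.95 or more. The heavy-strand mean was followed most closely by Tshz3 (0.993), Atp10a (0.989), Ntn4 (0.983), Elp6 (0.981) and Zfp667 (0.978), none of them among those nearest to ND6. Tshz3, a zinc finger gene, was likewise low in wild-type replicate 1 (6.44), knockout replicate 1 (6.62) and knockout replicate 3 (6.55) and high in the other samples (6.92 to 7.13).

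Respiratory chain subunits encoded in the nucleus, which join the mitochondrial subunits in the same complexes, showed no difference that passed the threshold. Of 66 measured subunits, 27 were above 0 and 39 below, with a median of -0.02 and 0 called. Knockout lay wholly below wild type for 2 of the 66 and wholly above for 1, shares under the backgrounds of 4.45% and 6.41%. No nuclear subunit differed by as much as ND6. The extremes were Ndufb11 at -0.35 and Ndufb10 at 0.21, both accessory subunits of complex I.

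By complex, 18 of 32 nuclear subunits of complex I were above 0, with a median of 0.02. Ndufb10 had log2 signals of 6.37, 6.31 and 6.17 in wild type and 6.63, 6.45 and 6.41 in knockout, a difference of 0.21 ± 0.09 (standard error; adjusted p 0.853, limma). For complex III, 4 of 8 were above 0, and Uqcrh differed by -0.14 ± 0.10. Of 11 nuclear subunits of complex IV, 8 were below 0 with a median of -0.05. Cox4i1, the 1 of these 11 with knockout wholly below wild type (background 4.45%), differed by -0.08 ± 0.07. Of 15 subunits of ATP synthase, 13 were below 0 with a median of -0.05. Its subunit gene Atp5pb, the 1 of these 15 with knockout wholly below, went from 8.72 ± 0.07 in wild type to 8.65 ± 0.0044 in knockout (SD, n = 3 each). These medians were of the size of the heavy-strand median and far smaller than the ND6 difference.

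The machinery that transcribes and processes mitochondrial RNA had 27 measured genes, 12 above and 15 below 0, with a median of -0.03 and 0 called. The polymerase gene Polrmt differed by 0.0053, the transcription factor gene Tfam by -0.15 and Tfb2m by -0.18, with adjusted p values of 0.881 to 0.998 (limma). Trmt10c, a subunit of the RNase P that frees the 5′ ends of mitochondrial transfer RNAs, had log2 signals of 6.12, 6.32 and 6.11 in wild type and 5.65, 5.87 and 5.95 in knockout. Its difference was -0.35 ± 0.11 (standard error; adjusted p 0.849), and its groups did not overlap, a pattern held by 1 of the 27 genes against a background of 4.45%, while 2 of the 27 lay wholly above (background 6.41%). Fastkd2, an RNA-binding protein of mitochondrial RNA granules, differed by 0.25 ± 0.10, and the oligoribonuclease gene Rexo2 by -0.17 ± 0.09.

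The genes of the light-strand RNA surveillance pathway, which in human cells removes noncoding RNA of the strand that carries ND6, were close to 0. Supv3l1, the helicase, differed by 0.00083, Pnpt1, the nuclease, by 0.02, and Grsf1 by -0.02. Lrpprc, which stabilises heavy-strand messenger RNAs and is reported to leave ND6 aside, differed by -0.03. The mitochondrial poly(A) polymerase gene Mtpap differed by 0.12. None of these 5 genes passed the threshold (adjusted p 0.897 to 1, limma).

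Genes that copy and maintain mitochondrial DNA were above 0 for 6 of 11, with a median of 0.05. Rnaseh1, which removes RNA from RNA-DNA hybrids in the nucleus and in mitochondria, had signals of 5.52, 5.50 and 5.33 in wild type and 5.72, 5.81 and 5.72 in knockout. Its difference was 0.30 ± 0.08 (standard error; adjusted p 0.849, limma), and it was the 1 gene of the 11 with all knockout values above all wild-type values, against a background of 6.41%. The polymerase gene Polg differed by 0.09, the helicase gene Twnk by -0.01 and the thymidine kinase gene Tk2 by 0.12. Regulators of mitochondrial biogenesis were above 0 for 5 of 12 with a median of -0.02, and Ppargc1a, the coactivator PGC-1alpha, differed by -0.01. Gabpb1, a subunit of the factor also called NRF2, differed by -0.13 ± 0.07, from 5.58 to 5.45.

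Genes of the mitochondrial ribosome, which translates all of these messenger RNAs, were balanced at 33 above and 35 below 0 of 68, with a median of -0.0027. The knockout samples lay wholly above wild type for 8 of the 68 (background 6.41%) and wholly below for 3 (background 4.45%). Mrpl4 differed by 0.34 ± 0.08 and Mrpl55 by -0.28 ± 0.09 (standard error), both with an adjusted p of 0.849 (limma). The signs of the list were thus balanced, while the share of genes wholly above wild type exceeded its background, which was not tested.

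**Figure D4:**
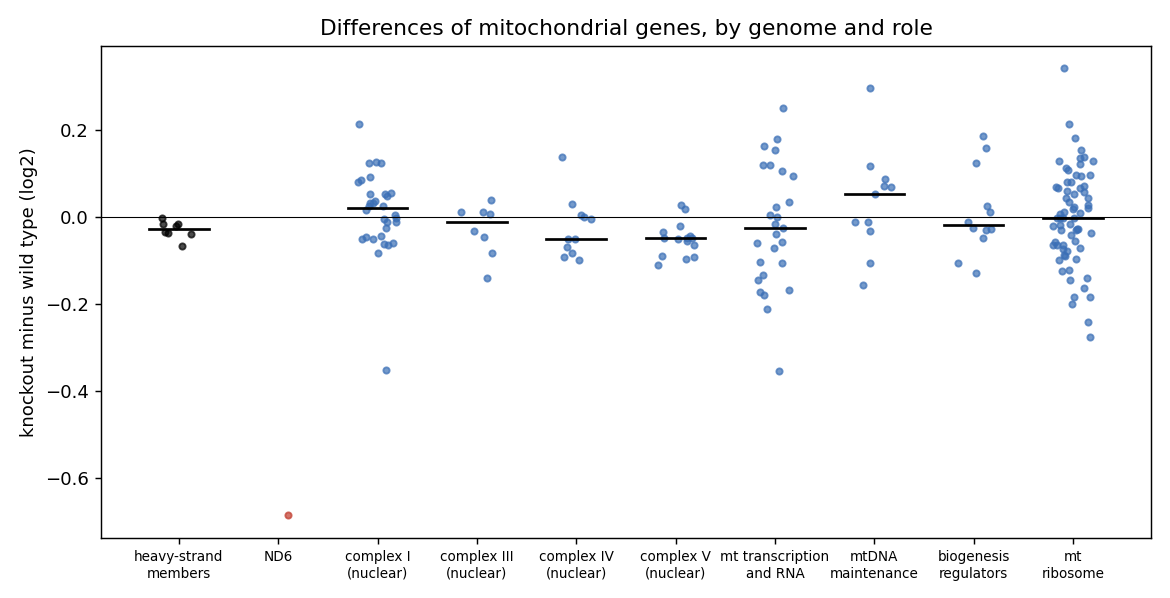
Knockout minus wild type (log2, vertical axis) is shown for each heavy-strand member, ND6 and each gene of 8 lists of nuclear mitochondrial genes, with a black line at the median of each list. The list medians lie between -0.05 and 0.05, and ND6, at -0.69, lies below all nuclear genes plotted, of which the lowest stands at -0.35.

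The arrays were alike as a whole, with medians of 4.73 to 4.75 and Pearson's r across probe sets of 0.985 to 0.988 for all pairs. Markers of neurons and of hippocampal fields were set against the overall median signal of 4.74. On average, 6 of 6 neuron markers, 4 of 5 dentate granule markers and 6 of 6 CA1 and CA3 markers lay above it. The other dentate marker lay just under that median, at 4.72. Thalamus and habenula markers other than Tac1 lay above it too, such as Prkcd at 6.64 in wild type. This bar was thus low and did not identify the tissue.

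Markers of myelinating oligodendrocytes were lower in signal in knockout beside ND6, at 7 of 7 measured genes and a median of -0.44. The mean deviation of this list was 0.14 to 0.24 in the wild-type samples and -0.48 to 0.08 in the knockout samples. In knockout replicate 2 both were lowest, at -0.48 for the markers and -0.51 for ND6. In knockout replicate 3 the markers were at 0.08 and ND6 at -0.35. Wild-type replicate 1 had the highest markers, at 0.24, and the lowest ND6 of its group, at -0.05. The lowest group mean of these markers was 7.18, of Cnp in knockout, and none of the markers passed the threshold. All 7 were lower with an unadjusted p under 0.05 (limma), as were 575 of all 22180 genes. Knockout lay wholly below wild type for 6 of the 7, where the background over all genes was 4.45%; these markers come from the same cells and are not separate observations. The part of oligodendrocyte content in the ND6 difference was not tested.

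The other marker lists had medians closer to 0, in both directions. Dentate granule markers were above 0 for 5 of 5 genes with a median of 0.12, at -0.22 to 0.11 in wild type and -0.04 to 0.21 in knockout. CA1 and CA3 markers were above 0 for 4 of 6 with a median of 0.15, and knockout lay wholly above wild type for 2 (background 6.41%) and wholly below for 2 (background 4.45%). Thalamus and habenula markers were split at 3 of 6. Neuron markers were below 0 for 4 of 6 genes with a median of -0.0046 and deviations of -0.03 to 0.02 in wild type and -0.04 to 0.06 in knockout. Endothelium markers were below 0 for 5 of 6 with a median of -0.07, at -0.15 to 0.13 in wild type and -0.16 to 0.04 in knockout. Choroid plexus markers were below 0 for 5 of 5 with a median of -0.18, at 0.04 to 0.17 in wild type and -0.27 to 0.11 in knockout. Astrocyte markers were split at 3 of 6, and microglia markers were below 0 for 4 of 5 with a median of -0.04. The part of these cell types and fields in the ND6 difference was not tested.

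**Figure D5:**
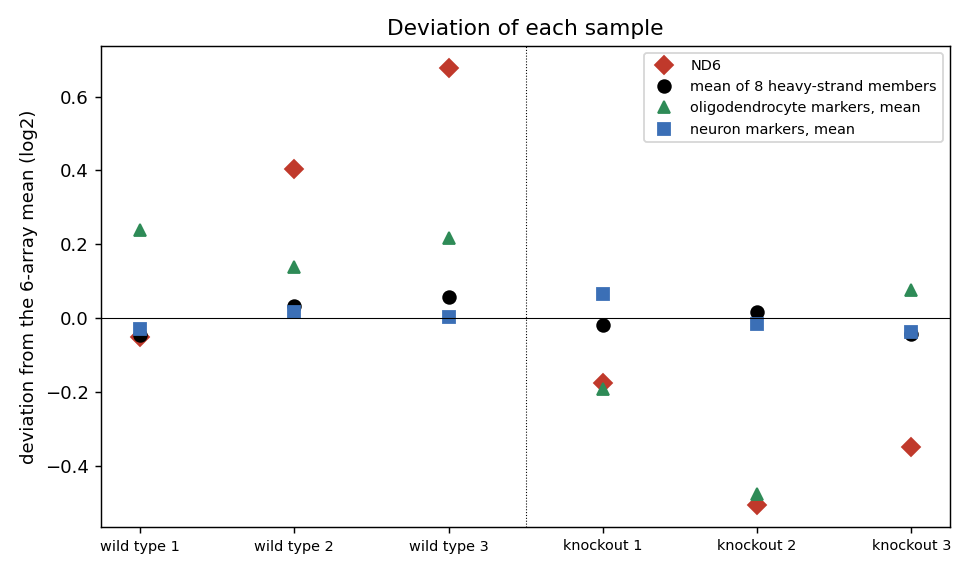
The deviation from the mean over 6 arrays (log2, vertical axis) is plotted for each sample, for ND6 (red diamonds), the mean of the 8 heavy-strand genes (black circles) and the means of the oligodendrocyte (green triangles) and neuron markers (blue squares). ND6 runs from 0.68 in wild-type replicate 3 to -0.51 in knockout replicate 2, while the heavy-strand mean stays between -0.05 and 0.06.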

How the data were processed

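Hippocampal total RNA was taken up in Trizol and copied into sense cDNA labelled with biotin, per the labels' protocols. The deposited log2 values were made by the authors with Affymetrix Power Tools (RMA), per the submitters' processing notes, which give no versions; the genome build was not given in the sources used here. RMA in general equalises the distributions of arrays, so a change shared by the brightest probe sets can be removed. Of 41345 probe sets, 23521 named 1 gene, 1814 several and 16010 none in the platform annotation, which can be old. The probe set of the highest mean stood for its gene (22180 genes, 21994 matched by number to RefSeq genes, GRCm38.p6, used for names and gene order). The genotypes were compared in limma 3.58.1 under R 4.3.3, without covariates, and p-values were adjusted by Benjamini-Hochberg over all genes, at a threshold of 0.05; the fit was tested on simulated data. Precision is limited by the number of arrays; the standard error had a median of 0.10.

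The members and lists were chosen with earlier results of these data known. The plan counted ATP6 among the heavy-strand genes; since it was not found, 8 remained. Named were all members, up to 3 genes per list with the smallest p, and 5 genes nearest to each profile; Cdr1, Gabra2 and the further genes of mitochondrial transcription and DNA upkeep were added after values were seen. Alternatives were a replicate block, repeated quantile normalization, trend and robust variance, median centring, array weights, a signal filter, other handling of probe sets, and leaving out each sample. Figures used matplotlib 3.10.9 in Python 3.11.15. No sequence of the mitochondrial genes was used here.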

Additional observations from a re-analysis of the deposited data

How the results depend on the processing

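The ND6 difference kept its direction and stayed on the same side of the adjusted threshold under all 15 alternatives, with adjusted p values of 0.682 to 0.985 (limma). For many of these the direction was fixed in advance. Groups that do not overlap keep their order when a sample is left out, and several other settings do not alter the ND6 group means. The ND6 difference was -0.71 to -0.68 under the other settings. With a sample left out it was -0.88 (without wild-type replicate 1) to -0.52 (without wild-type replicate 3). Relative to the heavy-strand mean it was -0.82 to -0.51 with a sample left out. The heavy-strand median was -0.06 to -0.01 with a sample left out and -0.03 to -0.02 otherwise, and 6 to 8 of the 8 genes were then below 0. With single samples left out ND1 ran from -0.045 to 0.023 and ND5 from -0.058 to 0.012, so that their signs turned. Repeated quantile normalization set the ND4 difference to 0, since this probe set is the brightest on every array. The inclusion of COX3 and both probe sets naming several genes, chosen after seeing the data, left the contrast with ND6 at -0.66. The count of genes called was 0 in all but 2 settings. Trend and robust variance gave 1, namely Trpc4 at an adjusted p of 0.0378, and the count was 0 to 1 with a sample left out (Rps13, adjusted p 0.00897, without knockout replicate 1). With a replicate block the ND6 difference was -0.69 with an adjusted p of 0.809 and 0 genes were called. Same-numbered samples shared little deviation (r of -0.0038 to 0.07 over 22180 genes). The labels do not say whether the numbers pair the samples, and these values cannot decide it. The intervals of the heavy-strand genes do not exclude differences up to their bounds, and signal over background was not measured.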
